A study of Homo sapiens with 12 samples.

Results

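The circular RNAs described here are 328 of the 6384 circRNA rows in the count table (5.14%): molecules of middle abundance in an IGF2BP2 pulldown that gave no read in any control pulldown. They were chosen by their measured counts, with a sum of 9 to 60 over the 6 libraries precipitated with an anti-IGF2BP2 antibody and 0 counts in all 6 libraries precipitated with normal rabbit IgG. Their presence with the antibody and absence with IgG therefore follow from the choice and are given as description only.

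The material was MDA-MB-231, an established triple-negative breast cancer cell line, in 4 groups of 3 libraries. The parental cells (Sens; genotype labelled WT, no treatment) and the cells with established resistance to BET inhibitors (Res; BETi given continuously until harvest) were each precipitated with the IGF2BP2 antibody (RIP) or with IgG. Drug exposure and the resistant state cannot be told apart in this design. The labels do not say whether Res is 1 clone, and nothing says that the replicates came from separate cultures, so p-values measure a spread between libraries that may be technical. RIP libraries held 4448 to 8662 circRNA counts and IgG libraries 1960 to 6036.

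IGF2BP2 is a cytoplasmic RNA-binding protein with KH and RRM domains that binds many transcripts, including m6A-modified ones, and affects their stability and translation; MYC mRNA is among its known targets. circRNAs are closed loops made by back-splicing of exons, resist exonucleases and can be bound by such proteins. BET inhibitors are compounds that act on chromatin and lower the transcription of genes such as MYC. In a RIP, RNA that comes down with IgG measures what sticks to beads and antibody without the target protein. The table identifies circRNAs by circBase-style identifiers and does not pair them with host genes, so the functions of the single molecules and their sequences are not given.

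The 328 circRNAs were close to the floor of their range. Their summed RIP counts ran from 9 to 59, with a median of 14 and quartiles of 10 and 20. Together they held 5531 counts, of which the 10 most abundant held 9.31%; the range of 9 to 60 fixes how uneven this can be. At the lower edge, 52 had a sum of exactly 9, and a further 62 rows without an IgG count had a sum of 8. At the upper edge, 1 circRNA had 59 and none had 60 or 61. Another 10 rows without an IgG count lay above the range, at 65 to 215. Only 4 rows in the range had exactly 1 IgG count, and 262 had at least 1.

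The absence from IgG was more common among rare circRNAs. Of the rows with 1 RIP count, 91.1% had no IgG count (Wilson 95% interval 89.9% to 92.1%). Within the range of the 328, the share was 62.0% at 9 to 12 counts (145 of 234 rows; 55.6% to 67.9%), 60.4% at 13 to 20 (110 of 182; 53.2% to 67.3%) and 42.0% at 21 to 60 (73 of 174; 34.9% to 49.4%). Above 60 it was 17.5% (10 of 57; 9.82% to 29.4%). The intervals cover counting error only, and these shares use the values that chose the members.

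**Figure D1:**
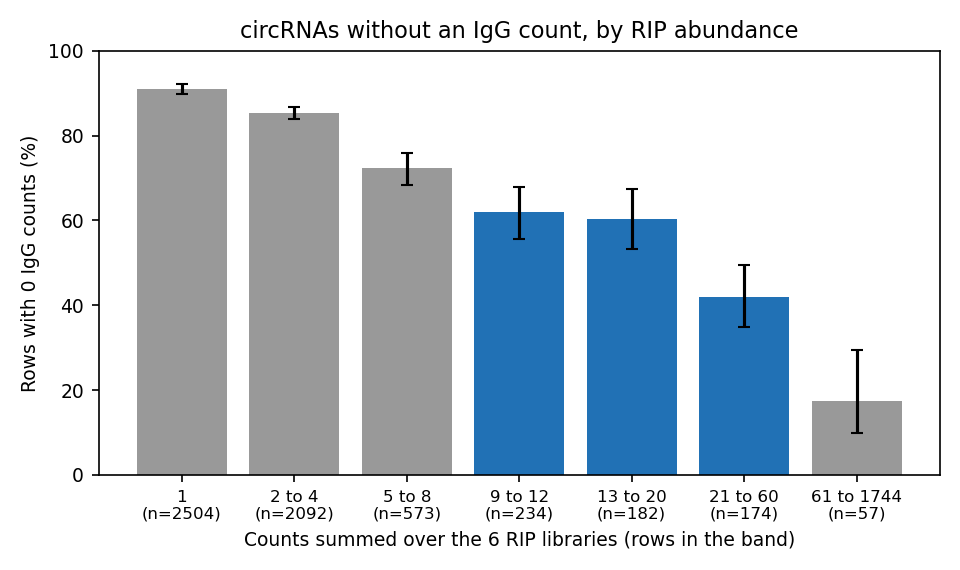
Share of circRNA rows with 0 counts in all 6 IgG libraries (percent, y axis) against counts summed over the 6 RIP libraries (bands on the x axis, with the number of rows); error bars are Wilson 95% intervals and blue bars hold the 328 circRNAs. The share falls from 91.1% at 1 count to 17.5% above 60.

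The depth of the IgG libraries sets what these zeros can show. A count of 0 allows up to 3 counts over the 3 IgG libraries of a line, which is 384.9 RPM (counts scaled to 1000000 circRNA counts of a library) in Sens and 196.2 RPM in Res. The mean RIP level was above that limit for 160 of 328 circRNAs in Sens and for 299 in Res, and in both lines for 134 (40.9%). On this scale, a difference from IgG was not detectable at this depth for the remaining 168 in Sens and 29 in Res. With TMM library sizes over the 12 libraries, the level was above the limit for 273 in Sens and 311 in Res, and on the scale of the ERCC spike-in, RNA standards mixed into equal amounts of RNA, for 318 and 323. In RPM, the median circRNA in Sens lay below the limit, so it has no bound, and the highest was at least 6.20-fold over IgG, for hsa_circ_0001362. In Res the median bound was at least 2.23-fold and the highest at least 13.6-fold, for hsa_circ_0006109. The median bounds in Sens and Res were at least 2.40-fold and 2.84-fold with TMM sizes. On the spike-in scale they were at least 334-fold and 361-fold. Sens IgG libraries held a mean of 117841.7 ERCC counts, and Sens RIP libraries 656.3. For Res these means were 74981.7 and 617.0. The spike-in bounds rest on this gap between libraries, which applies alike to every circRNA and is not particular to the 328.

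IgG counts also came in larger groups than RIP counts. A circRNA detected in IgG most often had 7 counts over the 3 libraries of its line, in both lines, while in the RIP it most often had 1. In Sens, 6.11% of the 475 circRNAs detected in IgG had a single count, against 52.7% of 3487 in the RIP. In Res these shares were 4.75% of 1243 and 45.7% of 4274. The limit of 3 counts takes each count as independent, so where IgG counts come in such groups the limits and bounds over IgG given above are too favourable. The part of this grouping in the zeros of the 328 circRNAs was not tested.

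As a set, the 328 circRNAs took a larger share of the RIP in resistant cells. They held 14.7%, 13.0% and 14.5% of circRNA counts in Sens RIP replicates 1 to 3, and 17.9%, 17.5% and 17.4% in Res RIP. The groups did not overlap, at 14.1% ± 0.922 (SD, n = 3) and 17.6% ± 0.249 (SD, n = 3). This ratio of 1.25 moved with 1 other molecule: hsa_circ_0001573 alone held 11.6% to 11.7% of the circRNA counts in Sens RIP and 0.0808% to 0.122% in Res RIP. With that circRNA left out of the denominator, a choice made after seeing the data, the shares were 15.9% ± 1.05 and 17.6% ± 0.251 (SD, n = 3 each) and the ratio was 1.11. Per 1000 ERCC counts, the set had 1069.9 ± 152.2 counts in Sens RIP and 1879.9 ± 367.6 in Res RIP (SD, n = 3 each), a ratio of 1.76. Res RIP libraries supplied 57.0% of all RIP circRNA counts, and the members were chosen by raw summed counts. Such a floor admits circRNAs high in Res more easily. The share, and the detection given next, are therefore not free of the choice and are description only.

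More of the 328 were also seen in resistant cells. At least 1 count was present for 262, 239 and 247 of them in the Sens RIP libraries and for 285, 308 and 267 in the Res RIP libraries. The groups did not overlap, with means of 249.3 ± 11.7 and 286.7 ± 20.6 (SD, n = 3 each). The highest number came from Res RIP replicate 2, the deepest library. After thinning every library to 4448 circRNA counts, the means for the 328 were 242.1 ± 7.92 and 264.9 ± 7.79 (SD, n = 3 each). The groups still did not overlap, at 233 to 247 and 256 to 270.4. Over all circRNAs, without thinning, 1591 to 1908 were detected in Sens RIP libraries and 1847 to 2681 in Res RIP libraries. The means were 1726.7 ± 163.4 and 2197.3 ± 432.7 (SD, n = 3 each), so before thinning a higher mean in Res was not particular to the 328. These ranges over all circRNAs overlapped, and they were not thinned to equal depth.

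**Figure D2:**
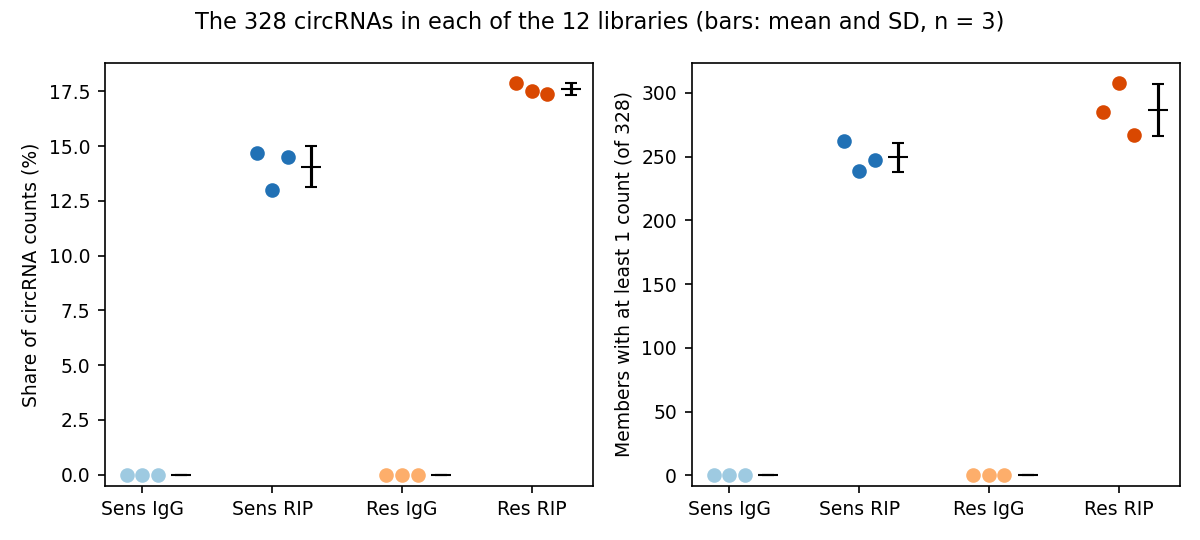
Share of circRNA counts (percent, left) and number of the 328 circRNAs with at least 1 count (right) in each of the 12 libraries, by group; points are libraries and black marks give mean and SD (n = 3). Sens RIP lies between 13.0% and 14.7% and Res RIP between 17.4% and 17.9%; IgG is 0 by the choice of members.

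Detection of single molecules was broad but thin. Of the 328, 112 had counts in all 6 RIP libraries, 107 in 5, 77 in 4, 29 in 3 and 3 in 2. Both lines gave counts for 313; 10 were seen in Res only and 5 in Sens only. Over all 647 circRNAs with a summed RIP count of at least 9, 22 lacked counts in 1 line. Among them were 7 of the 262 seen in IgG. In Sens RIP, 157 were present in all 3 libraries, against 232 in Res RIP. These 2 numbers were not corrected for depth (14780 circRNA counts in Sens RIP, 19568 in Res RIP) and have no share over all circRNAs beside them. Fewer than 3 Sens counts were available for 55. The library with most counts held a median of 36.4% of a circRNA's total. In 45 cases it held over 50%, and for 23 of these it was Res RIP replicate 2, which alone made up 25.2% of all RIP circRNA counts.

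The clearest case of a molecule resting on 1 library was hsa_circ_0030012. It had 0, 1 and 0 counts in the Sens RIP libraries and 0, 0 and 8 in the Res RIP libraries, so 88.9% of its counts came from Res RIP replicate 3. Its fitted log2 fold change, Res over Sens, was 2.36 (SE 1.44; edgeR adjusted p = 0.44), and without that library it was -2.12.

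The spread between replicates was a little above counting noise. The Pearson dispersion, which is 1 where libraries differ by sampling alone, was 1.30 for the 318 circRNAs with counts in Sens RIP and 1.57 for the 323 with counts in Res RIP. For the 262 circRNAs of the same abundance that were seen in IgG, it was 1.17 (255 with counts) and 1.49. These values describe the libraries and were not tested against each other.

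The comparison least bound by the choice of members is that of the lines within the RIP, because the rule used the sum over both lines and not how it divided. The direction of change is not wholly free of the rule, which used raw counts from lines of unequal depth. The RIP held 19568 circRNA counts in Res and 14780 in Sens, and IgG 15292 and 7794. All circRNAs tested passed the same floor on the summed RIP count. The comparison asks which circRNAs were bound more or less by IGF2BP2, or were more or less abundant in its pulldown, once cells had become resistant. Amount in the cell and binding cannot be told apart in these libraries. All 647 circRNAs with a summed RIP count of at least 9 were tested, so every one of the 328 entered, whichever line it came from. With edgeR's quasi-likelihood test, 12 of the 328 differed at an adjusted p under 0.05 (3.66%), against 36 of all 647 (5.56%). Of these, 7 were higher in Res, 2.13% against a background of 3.25%, and 5 were lower, 1.52% against 2.32%. The members' share of calls was thus not above that of all circRNAs tested, and the 262 of the same abundance seen in IgG gave 10 calls (3.82%).

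hsa_circ_0003611 rose in Res. It had 1, 2 and 0 counts in Sens RIP replicates 1 to 3 and 12, 23 and 13 in Res RIP. All Res libraries lay above all Sens libraries, at 199.7 ± 210.3 RPM and 2420.3 ± 290.6 RPM (SD, n = 3 each). With 3 Sens counts in all, the ratio of summed counts per library total was 12.1 (exact 95% interval 3.90 to 60.7; fitted log2 fold change 3.40, SE 0.66, edgeR adjusted p = 5.66e-05).

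hsa_circ_0006109, the most abundant of the 328, also rose. It had 2, 3 and 3 counts in Sens RIP and 20, 19 and 12 in Res RIP, without overlap. Its levels were 554.3 ± 170.1 RPM and 2667.6 ± 716.8 RPM (SD, n = 3 each), a fitted rise of 4.54-fold (log2 fold change 2.18, SE 0.52, edgeR adjusted p = 0.00184).

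hsa_circ_0004544 fell in Res and was not seen there at all. It had 9, 6 and 3 counts in Sens RIP, or 1183.5 ± 476.3 RPM (SD, n = 3), and 0 in every Res RIP library. Set against the 3 counts that 0 allows over the Res libraries it was at least 7.94-fold lower (edgeR adjusted p = 0.000575). The exact 95% limit, which also takes in the counting error of the 18 Sens counts, was 5.82-fold. It had the highest sum among the 5 circRNAs seen in Sens only.

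hsa_circ_0000660 showed the same pattern with fewer counts, 2, 5 and 4 in Sens RIP and 0 in every Res RIP library. Set against 3 counts it was at least 4.85-fold lower, with an exact 95% limit of 3.32-fold (edgeR adjusted p = 0.0213). It was called under 7 of 16 alternatives, with adjusted p from 0.02 to 0.209; DESeq2 gave it no adjusted p.

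Among the 10 circRNAs seen in Res only, hsa_circ_0076961 had the highest sum, with 1, 11 and 4 counts in Res RIP and 0 in every Sens RIP library. Set against 3 counts it was at least 4.03-fold higher, with an exact 95% limit of 2.91-fold (edgeR adjusted p = 0.0229). Most of its counts (68.8%) came from Res RIP replicate 2, and without that library the edgeR adjusted p was 0.213. The call also failed without any 1 of the Sens RIP libraries. It was made under 6 of the 15 alternatives that included this circRNA, with adjusted p from 0.00568 to 0.213, and DESeq2 gave no adjusted p.

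Of the 5 lower calls, 4 had no Res count. The exception was hsa_circ_0001362, singled out after its values were seen. It had 11, 14 and 10 counts in Sens RIP and 6, 8 and 3 in Res RIP, with no overlap at 2386.9 ± 493.0 RPM and 850.2 ± 242.7 RPM (SD, n = 3 each). It was 2.80-fold lower by the fit (log2 fold change -1.48, SE 0.47, edgeR adjusted p = 0.0362), and over its alternatives the adjusted p ran from 0.0302 to 0.464. The 7 higher calls had 0 to 8 Sens counts and 16 to 51 Res counts, and in 6 of them the lines did not overlap. For the 6 with counts in both lines, the fitted log2 fold change was 2.18 to 3.52.

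**Figure D3:**
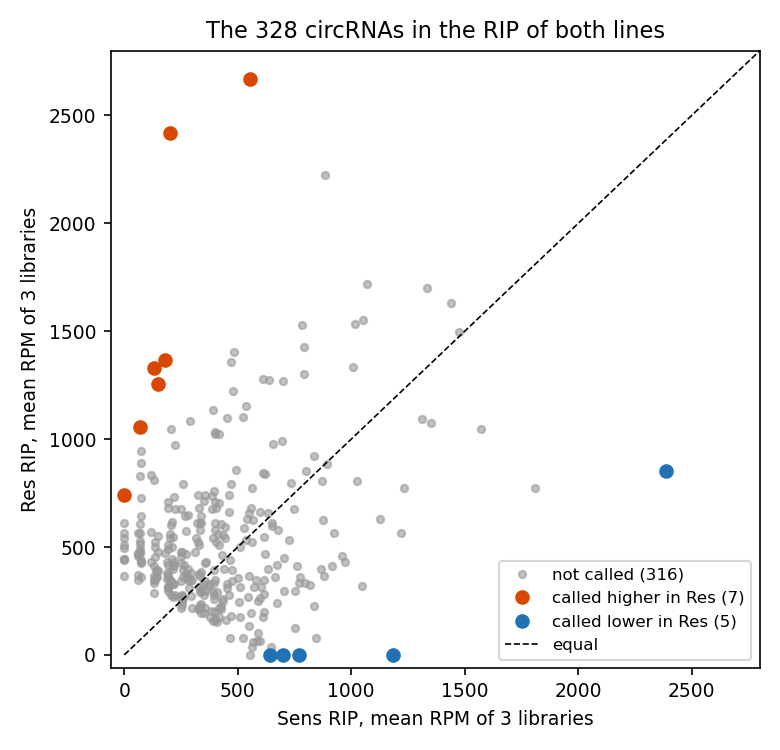
Mean RPM of each of the 328 circRNAs in Sens RIP (x axis) and Res RIP (y axis), 3 libraries each; the dashed line marks equal levels. Orange points are the 7 called higher in Res and blue points the 5 called lower, 4 of which lie at 0 in Res.

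The number of calls depended on single libraries and on the tool. Without Sens RIP replicate 1, 2 or 3 it was 6, 3 and 6, where backgrounds were 3.86%, 2.47% and 3.71% of the 647. Without Res RIP replicate 1, 2 or 3 it was 4, 4 and 9, with backgrounds of 3.25%, 3.55% and 5.26%. DESeq2 called 3 of the 328 (background 3.25% of the 647) and limma-voom 5 (background 3.71%). Scaling to the spike-in gave 18 calls, 16 of them higher in Res (background 8.66%). Under all 16 alternatives, 3 circRNAs were called each time and in the same direction: hsa_circ_0003611 (adjusted p 4.17e-06 to 0.00708 with the tools named), hsa_circ_0006109 (0.000154 to 0.0454) and hsa_circ_0004544 (0.000141 to 0.0307). The other 9 were called under 3 to 7 alternatives, and no alternative turned their direction.

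**Figure D4:**
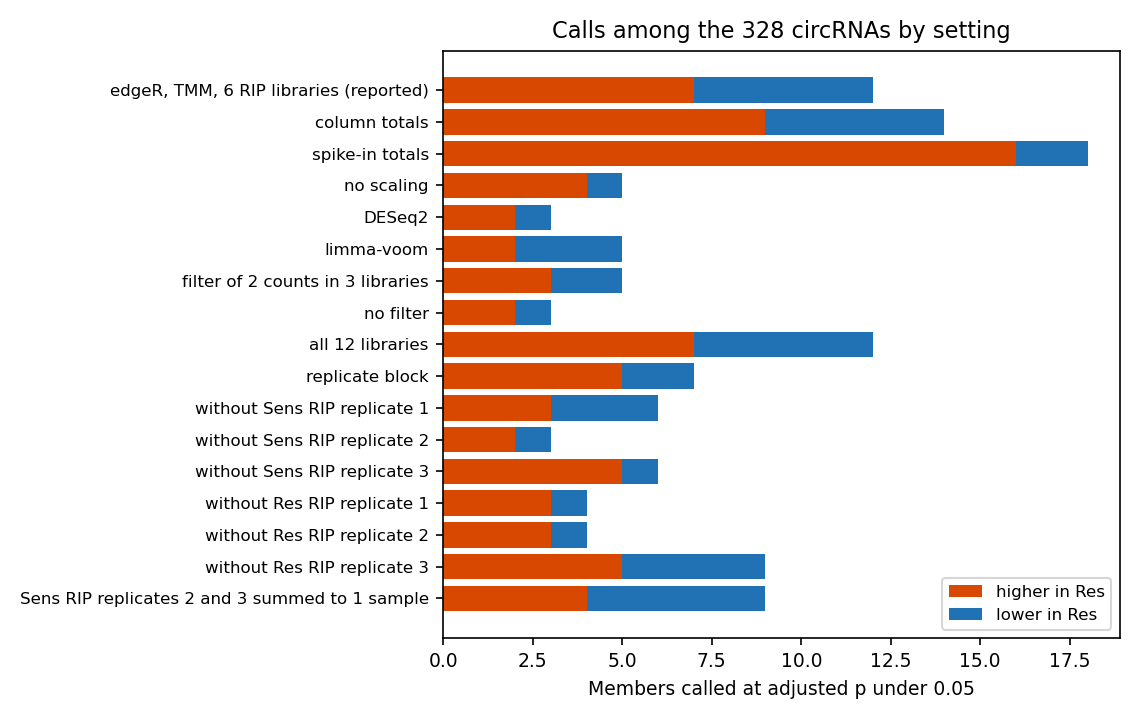
Number of the 328 circRNAs called between Res and Sens RIP (x axis) under the reported fit and 16 alternatives (y axis); orange is higher and blue lower in Res. Counts range from 3 to 18, and the reported fit gives 7 higher and 5 lower.

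hsa_circ_0008234 was the next most abundant of the set, with 57 counts. It had 4, 6 and 3 counts in Sens RIP and 15, 20 and 9 in Res RIP, with no overlap in RPM at 883.8 ± 324.5 and 2222.0 ± 447.1 (SD, n = 3 each). Its fitted log2 fold change of 1.27 (SE 0.49) did not pass the test (edgeR adjusted p = 0.105; 0.0125 to 0.448 over the alternatives, with the spike-in scale below 0.05).

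Another pair of abundant members was picked for a fitted change near 0, so their values are a description. hsa_circ_0005228 had 4, 3 and 2 counts in Sens RIP and 5, 3 and 4 in Res RIP, with a log2 fold change of 0.01 and an approximate 95% interval of -1.74 to 1.75. hsa_circ_0056577 had 9, 1 and 3 counts in Sens RIP and 5, 8 and 5 in Res RIP, with a log2 fold change of 0.03 and an interval of -1.22 to 1.29. Both intervals reach past 1 on the log2 scale in each direction, so they do not show that the lines were alike, and with 1 library left out the change of hsa_circ_0056577 ran from -0.48 to 0.99.

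**Figure D5:**
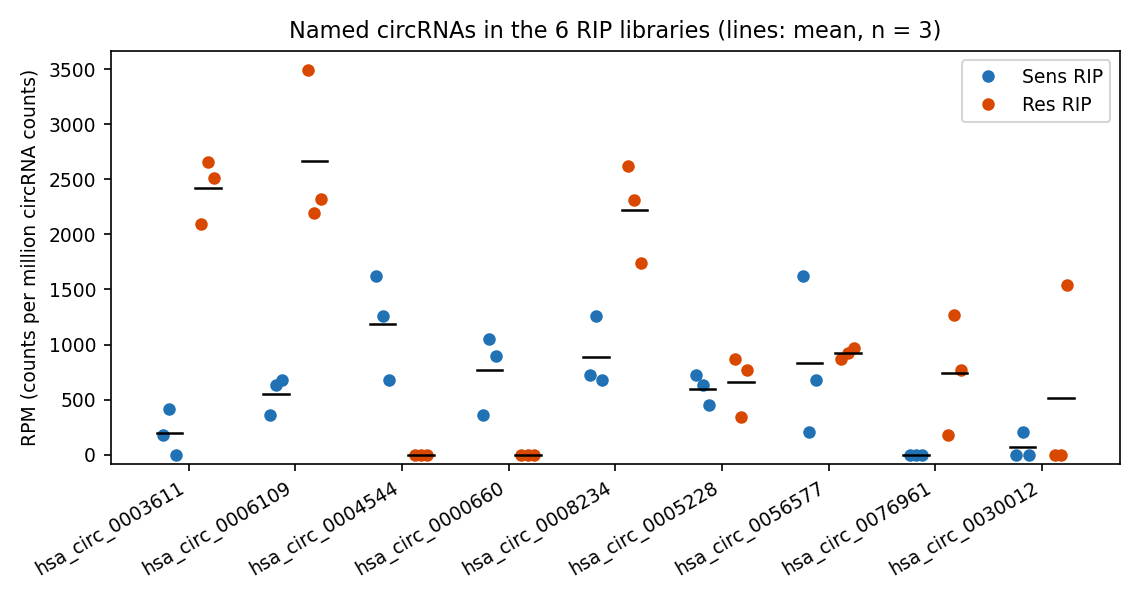
RPM of the named circRNAs in each of the 3 Sens RIP (blue) and 3 Res RIP (orange) libraries (y axis), with horizontal lines at the means. hsa_circ_0003611, hsa_circ_0006109 and hsa_circ_0008234 lie higher in every Res library, and hsa_circ_0004544 and hsa_circ_0000660 are at 0 in all 3 Res libraries; hsa_circ_0001362 is not plotted.

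Over the whole set, the median fitted change was above 0, and nearer to 0 over all circRNAs tested, which include the 328. The median log2 fold change was 0.35 (quartiles -0.50 and 1.17), beside 0.18 (quartiles -0.48 and 1.01) over all 647 circRNAs. The fitted change was above 0 for 200 of the 328, against 366 of the 647 (56.6%). Setting the 15 members that lacked counts in 1 line to 3 counts there left the median at 0.35. With at least 9 counts in their other line, none of the 15 could cross that median, so this is no check of it. The gap to all circRNAs depended on the libraries: without Sens RIP replicate 2 the medians were 0.17 and 0.16, and without Res RIP replicate 3 they were 0.17 and 0.05. Without Sens RIP replicate 1 they were 0.47 and 0.23. With no filter on counts, the median was 0.47 for the 328 and 0.56 over the 5816 circRNAs then fitted, a larger set than the 647. On the spike-in scale the median of the 328 was 0.87, with 0.72 over all circRNAs. A log2 change within 1 of 0 was fitted for 187 (57.0%), against 61.8% of all tested.

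The median change was close to that value at each abundance, while precision rose with it. The median log2 fold change was 0.35 for the 145 circRNAs with 9 to 12 counts, 0.33 for the 110 with 13 to 20 and 0.37 for the 73 with 21 to 60. The median SE fell from 1.21 to 0.94 and 0.68 over these bands, and the calls numbered 3, 2 and 7. These numbers of calls cover the members only and have no share over all circRNAs tested in the same bands beside them. Whether the rise in the highest band was particular to the members was not tested. Where both lines had counts, the median SE of the set was 1.03, so most changes of a few-fold were not detectable at this depth.

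Libraries of the lines overlapped for most of the set. In RPM, all Res RIP libraries lay above all Sens RIP libraries for 42 of the 328 (12.8%), against 14.5% of the 647. All lay below for 22 (6.71%), against 7.42%. Both shares were close to the background of all circRNAs tested. Unadjusted p-values under 0.05 were found for 48 of the 328 (14.6%), against 17.2% of the 647.

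The series defines a delta enrichment, RIP minus IgG in RPM, Res minus Sens, and reads a value below 0 as a lost association with IGF2BP2. For these circRNAs the IgG terms are 0, so the delta is the difference between the RIP levels alone. It was below 0 for 126 of 328 (38.4%), beside 46.7% of the 647, where IgG counts also enter. The 126 had a median of -232.0 RPM and the 202 above 0 a median of 291.5 RPM. One count stood for 115.4 to 224.8 RPM in a RIP library, so the median deltas stood for between 1 and 3 counts per library. The lowest value was -1536.7 RPM for hsa_circ_0001362, followed among the named ones by -1183.5 for hsa_circ_0004544 and -769.0 for hsa_circ_0000660. The highest was 2220.6 RPM for hsa_circ_0003611, and hsa_circ_0006109 had 2113.3. Per 1000 ERCC counts 88 were below 0, and with hsa_circ_0001573 left out of the denominator 141.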

How the data were processed

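The deposited table holds raw counts per circRNA and per ERCC transcript in 12 libraries. Per the labels' protocols, the authors normalised to the spike-in using RUVSeq, while the deposited whole numbers are unscaled. GRCh37 is the build in the submitters' processing notes; the aligner, circRNA caller and counting rule are not given in the sources used here. The 57 ERCC rows entered neither library sizes nor tests. Groups and replicate numbers came from sample titles.

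circRNAs with at least 9 counts over the 6 RIP libraries (647) entered edgeR 4.0.16 (R 4.3.3) with TMM factors, the quasi-likelihood test and Benjamini-Hochberg adjustment over all 647, on those 6 libraries; the function was tested on simulated data. The prior degrees of freedom were 307, so a circRNA's own replicates had little weight. DESeq2 1.42.0, limma-voom (limma 3.58.1), other scalings, filters, all 12 libraries and left-out libraries were alternatives. RPM divides by the circRNA counts of a library. Undetected groups were set to 3 counts over the group. Thinned detection is the exact expectation. The Wilson and exact intervals cover counting error only, since reads are not independent molecules. The approximate intervals of fitted changes rest on the SE of the edgeR fit, which also includes the estimated spread between libraries.

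The members and lists were chosen with earlier results of these data known. Named circRNAs were the 2 with the smallest p per direction, the 2 with the highest sums, the 2 with a fitted change nearest 0 above the third quartile of sums, the highest sum seen in 1 line only and the largest share in 1 library. Host genes could not be paired, so the other calls are given as ranges.

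Counts of Sens RIP replicates 2 and 3 did not differ over circRNAs with at least 10 pooled counts (chi-square p = 0.151, dispersion 1.13) but did over those with at least 5 (p = 0.000105, dispersion 1.33), so they were kept apart, with their sum as an alternative. Every other pair of a group differed at both minimums.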

Additional observations from a re-analysis of the deposited data

Results flagged for a closer look

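The level in the RIP differed between Sens and Res for 12 of the 328 circRNAs by edgeR's test of the RIP libraries (3.66%, against 5.56% of all 647 tested). IgG had 0 counts for them in both lines; the signal over IgG itself was not tested. Among the named ones, the fitted log2 change, Res over Sens, was 3.40 for hsa_circ_0003611 and 2.18 for hsa_circ_0006109. It was -5.84 for hsa_circ_0004544 and -5.19 for hsa_circ_0000660; the last pair had 0 Res counts, so these fitted values depend on the prior count and are no bounds.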

How the results depend on the processing

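Among the 328, 12 calls became 5 with no scaling, 3 with DESeq2, 5 with limma-voom, 5 of 270 tested with at least 2 counts in 3 libraries, 3 with no filter, 7 with the replicate block, and 3 to 9 with 1 library left out. They were 18 with spike-in totals, 14 with column totals, 12 with all 12 libraries and 9 with Sens RIP replicates 2 and 3 summed. The 36 calls over all circRNAs became 56 with spike-in totals, 21 with DESeq2, 18 with no filter and 16 to 34 with 1 library left out. They were 25 with no scaling, 24 with limma-voom, 29 of 608 with at least 2 counts in 3 libraries and 28 with the replicate block. Column totals gave 40, all 12 libraries 38 and the summed replicates 33. The spike-in scale also moved the split from 21 higher and 15 lower to 50 and 6. The members' median log2 fold change of 0.35 became 0.87 with spike-in totals, 0.77 with no scaling, 0.24 with limma-voom, 0.47 with no filter, 0.17 with Sens RIP replicates 2 and 3 summed (added after seeing the data) and 0.17 to 0.47 with 1 library left out. The ratio of shares, 1.25, became 1.76 per 1000 ERCC counts and 1.11 without hsa_circ_0001573. Mean detection in Res RIP went from 286.7 to 264.9 after thinning. With TMM sizes the median bound over IgG was 2.40 for Sens (under 1, at 0.98, as reported) and 2.84 for Res (2.23 as reported). Spike-in totals gave 334 and 361, which rest on the higher ERCC counts of the IgG libraries. The circRNAs picked for a change near 0 changed sign without being called: hsa_circ_0005228 was at -0.19 with limma-voom, -0.0031 with all 12 libraries, -0.19 with the summed replicates and -0.24 to 0.26 with 1 library left out, and hsa_circ_0056577 at -0.24 with the summed replicates and -0.48 to 0.99. hsa_circ_0030012 ran from -2.12 to 4.45. Correlations of the deviations of same-numbered RIP libraries were 0.035, -0.059 and 0.047. With few counts per circRNA, these values cannot show whether the replicate numbers pair the libraries. Causes were not tested.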
